A study of Mus musculus with 4 samples.

Results

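The genes described here are 10 immediate early genes, Fos, Fosb, Jun, Junb, Egr1, Egr4, Arc, Nr4a1, Ier2 and Dusp1, chosen by name from the 20136 genes listed in the deposited tables; all 10 were listed. They were followed across neurons, neuron subtypes, glia and vascular cells of the BNST, the stria terminalis bed nucleus, which belongs to the extended amygdala. The samples were 4 Drop-seq libraries (libraries 1 to 4), each made from BNST punches of 6 pooled wildtype male C57BL/6J mice, 24 mice in all, kept on a reversed light cycle with free access to chow and water. Every library carried the same genotype, sex and tissue and received no treatment, so libraries are replicates of a single group and the comparisons below are between cell classes within them. The mice's age and the time from dissection to lysis are not given in the sources used here. All of the tissue was dissociated into single cells before capture. Undissociated tissue was not analysed here, so whether a level was present before dissociation or arose during it cannot be told apart.

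Immediate early genes are transcribed within minutes of a stimulus from transcription factors already present in the cell, without new protein synthesis. Serum response factor with its ternary complex partners, and CREB, which binds cAMP response elements, are the best known inputs. Neuronal activity is the usual reading of these genes in brain sections, but growth factors, stress and handling of living tissue also raise them, in glia and vessels as well as in neurons. Fos, Fosb, Jun and Junb encode basic leucine zipper proteins that pair as the AP-1 transcription factor. Egr1 and Egr4 encode zinc finger transcription factors, Nr4a1 an orphan nuclear receptor, Ier2 a small nuclear protein, Arc a postsynaptic protein that governs AMPA receptor endocytosis, and Dusp1 a phosphatase that switches off MAP kinases.

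The sequences just upstream of the genes are shown because several members moved together between cell classes. RefSeq promoter sequences (GRCm38.p6) were found for 7 of the 10, all but Egr1, Arc and Ier2. Capitals mark matches to TGACG, the core of the cAMP response element (or CGTCA, the same letters on the other strand), to the full element TGACGTCA, or to TGACATCA, a variant searched for after the Jun sequence had been read. The 4 sequences below end at the RefSeq start of the gene, except that of Dusp1, which ends 47 bases before it, where an annotated exon begins. Fos and Jun were chosen as the members with the most UMIs in oligodendrocyte precursors, Egr4 as the member found almost entirely in neurons and Dusp1 as the member with the full element.
Fos, chr12:85473690-85473889, plus strand: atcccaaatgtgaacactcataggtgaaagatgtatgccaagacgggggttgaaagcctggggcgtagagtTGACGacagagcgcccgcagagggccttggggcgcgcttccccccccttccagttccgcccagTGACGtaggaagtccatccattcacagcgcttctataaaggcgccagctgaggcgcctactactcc
Jun, chr4:95052223-95052422, minus strand: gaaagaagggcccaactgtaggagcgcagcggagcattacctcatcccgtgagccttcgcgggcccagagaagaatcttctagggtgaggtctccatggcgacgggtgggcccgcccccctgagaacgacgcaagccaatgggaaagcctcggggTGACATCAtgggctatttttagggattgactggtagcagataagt
Egr4, chr6:85513590-85513789, minus strand: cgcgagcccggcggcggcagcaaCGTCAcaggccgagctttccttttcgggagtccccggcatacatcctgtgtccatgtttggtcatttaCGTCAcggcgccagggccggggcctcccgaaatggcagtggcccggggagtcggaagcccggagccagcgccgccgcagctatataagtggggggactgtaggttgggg
Dusp1, chr17:26508520-26508672, minus strand: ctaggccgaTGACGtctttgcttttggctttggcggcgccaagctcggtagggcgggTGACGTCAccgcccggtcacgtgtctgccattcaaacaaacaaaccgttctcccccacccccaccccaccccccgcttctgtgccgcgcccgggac

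In the 250 bases before the start, on either strand, TGACG was present in 6 of the 7 members at 13 places, and in 17.77% of the 32851 RefSeq promoters of the same length. Fos held it 129 to 125 and 66 to 62 bases before its start, Egr4 at 177 to 173 and 109 to 105, and Nr4a1 at 4 places; Jun held none. The full TGACGTCA, which contains TGACG on both strands, was present in Dusp1 alone, 143 to 136 bases before the start, against 1.546% of all promoters. TGACATCA was present in Jun alone, 45 to 38 bases before the start, against 2.928%. The letters TGANTCA, the AP-1 consensus, were in 0 of the 7 windows and in 6.749% of all promoters, and the CArG box bound by serum response factor was in 0 of the 7 and in 1.467%. TATAA was present in Fos and Egr4 and in 22.78% of all promoters. These are matches of letters within a short window and no binding was measured here.

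After filters on detected genes, mitochondrial share and doublets, 4181 cells remained from 10200 barcodes (837 to 1281 per library), holding 12037744 UMIs, the molecule counts of Drop-seq. Marker UMIs, none from the 10 genes, placed 3987 cells (95.4%) in a class: 2457 neurons, 917 oligodendrocytes, 127 oligodendrocyte precursor cells (OPCs), 398 astrocytes, 71 vascular cells (45 endothelial and 26 mural), 10 microglia or macrophages and 7 fibroblasts. Median UMIs per cell differed between classes, from 3294 in neurons and 1386 in oligodendrocytes to 1108 in OPCs, 815.5 in astrocytes and 802 in vascular cells. OPC sums carried Olig1, a marker not used in the gate, at 2769 CPM (counts scaled to a common total) against 1170 in oligodendrocytes, and the endothelial, mural, microglial and fibroblast lists at 1 UMI each. The same sums carried 298 CPM of the neuron list, 349 CPM of the astrocyte list and 241 CPM of the oligodendrocyte list, and 4461 CPM of 3 oligodendrocyte markers not used in the gates. Vascular sums carried 0 UMIs of Olig1 and of all 8 microglial markers, 188 CPM each of the neuron, astrocyte and OPC lists, the last through Pdgfra and Cspg4 only, and 153 CPM of the fibroblast list. The part of these markers in the results was not tested. No kept barcode was shared between libraries. The UMIs of a class in a library were summed and divided by all UMIs of that class, so each level below is a CPM of a class, given as mean ± SD over libraries with at least 10 cells; in such sums more RNA per cell and more cells with the RNA cannot be told apart. Nothing in the labels says more of the libraries than their batch numbers. The tests below take out what the classes of a library share. Their p-values thus measure how differences between classes vary over these 4 pools, or fewer where a class had too few cells. All classes of a fit share the estimate of that spread.

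Immediate early genes were high in OPCs and vascular cells and low in neurons, oligodendrocytes and astrocytes. The 10 genes together made up 15899 ± 3050 CPM in OPCs (n = 4) and 15875 ± 5391 CPM in vascular cells (n = 3), which is 28.7-fold the 553 ± 193 CPM of neurons in each case. With cells of at least 800 detected genes the vascular level was 9566 CPM, so its closeness to the OPC level holds for the main filter only. Oligodendrocytes held 466 ± 163 CPM and astrocytes 477 ± 259 CPM (n = 4 each), and the library values of these 3 low classes overlapped. OPCs were 3.04% of the cells and 1.31% of the UMIs and yet held 22.1% of the 11240 immediate early UMIs, and vascular cells, with 1.70% of the cells, held 11.01%. Neurons held 42.6% of them with 80.2% of all UMIs. The pattern was not shared by every member: Egr4 had 95.05% of its 202 UMIs and Arc 81.2% of its 117 in neurons, whereas Ier2 had 12.8% of its 345 there.

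**Figure D1:**
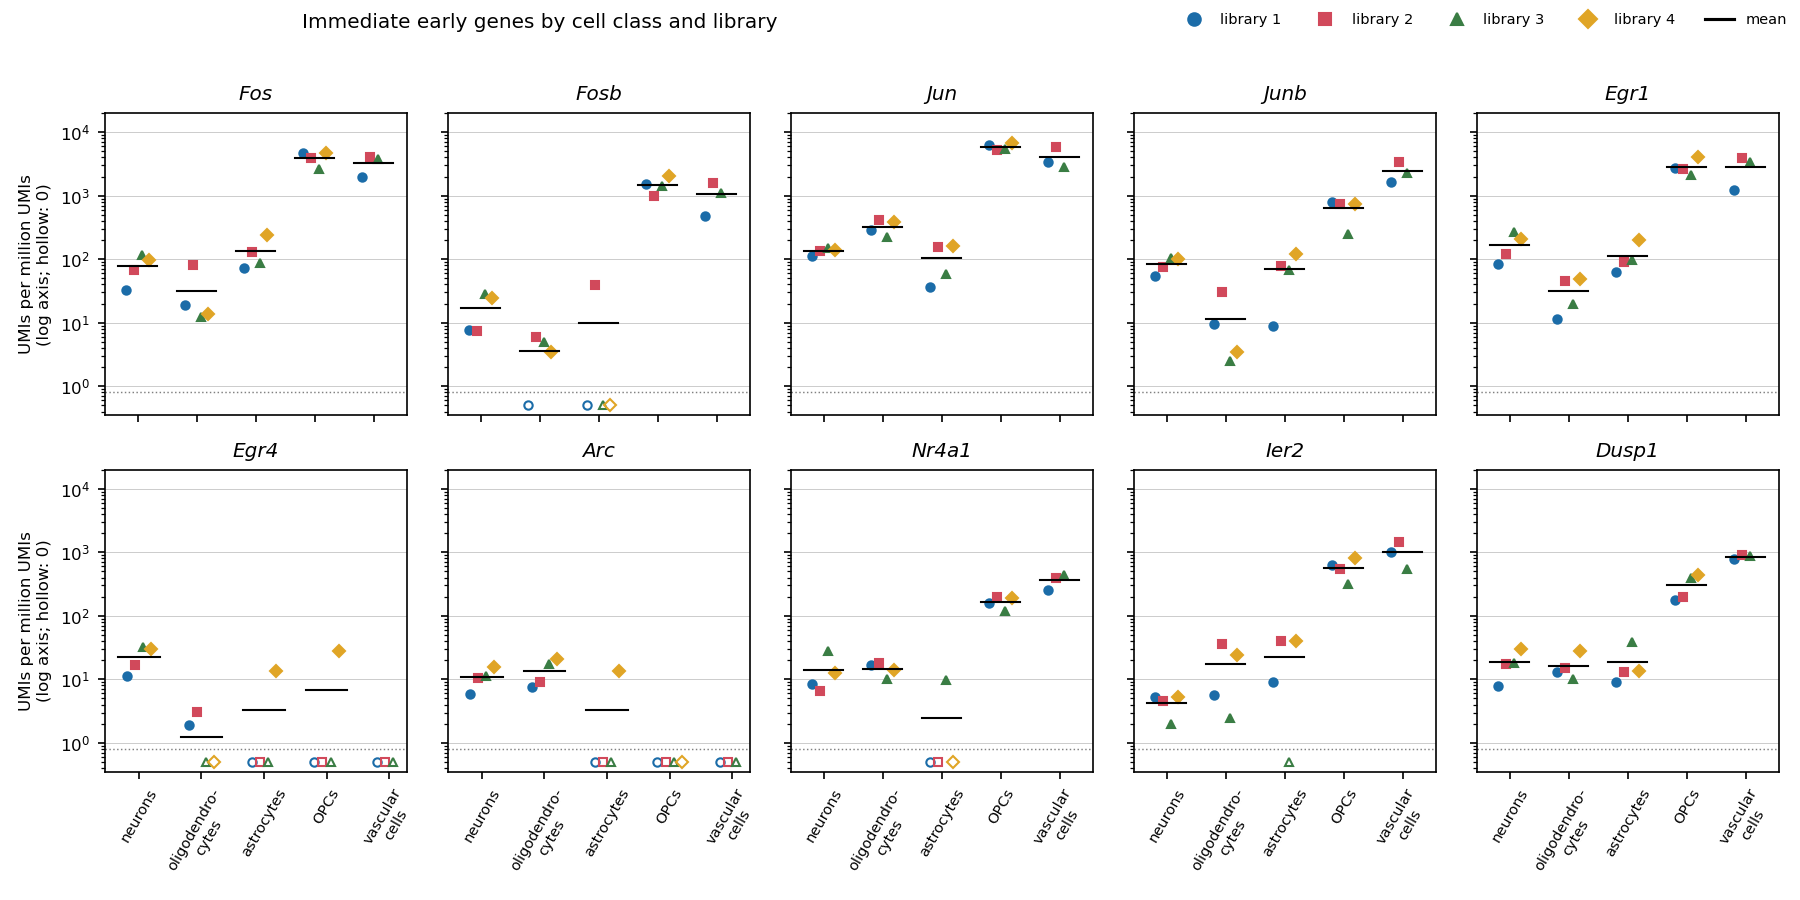
Level of each of the 10 genes in 5 cell classes, in CPM on a log axis. Each symbol is a library with at least 10 cells of the class, hollow symbols under the dotted line are libraries with 0 UMIs, and bars are means over libraries. For 8 genes the OPC and vascular symbols lie above all neuron symbols, while Egr4 and Arc have 0 or 1 UMI in each library of both classes. The share of all genes separated in this way is not given here.

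Among the AP-1 genes, Fos stood at 4693, 3921, 2631 and 4692 CPM in OPCs of libraries 1 to 4 (100 to 210 UMIs each) and at 32.4, 68.6, 116 and 98.1 CPM in neurons (131 to 206 UMIs). In vascular cells of libraries 1 to 3 it stood at 1980, 4110 and 3805 CPM. The lowest OPC or vascular value was far above the highest neuron value, and mean levels were 50.6-fold and 41.9-fold the neuron mean. Fosb, whose spliced form accumulates as the long-lived ΔFosB, was 1490 ± 425 CPM in OPCs, 1048 ± 549 in vascular cells and 17.1 ± 11.2 in neurons. Jun, the partner that binds DNA with Fos, was 6212, 5293, 5340 and 6679 CPM in OPCs and 3441, 5856 and 2826 CPM in vascular cells. In neurons Jun was the steadiest member, at 113, 134, 151 and 137 CPM. Junb, a weaker activator that competes with Jun, differed less in OPCs, at 631 ± 253 CPM or 7.48-fold the neuron mean of 84.4 ± 24.2, and stood at 2438 ± 873 CPM in vascular cells, 28.9-fold. Library 3 set the spread of Junb in OPCs, with 253 CPM (13 UMIs) against 745 to 782 in the other libraries.

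Egr1, the zinc finger factor that follows ERK signalling, was 2771, 2588, 2105 and 4002 CPM in OPCs, 1250, 3885 and 3370 CPM in vascular cells and 84.7, 121, 265 and 205 CPM in neurons. Neither the OPC nor the vascular values overlapped those of neurons, and the means were 17.0-fold and 16.8-fold that of neurons. The share of all genes without overlap is not given here. Egr4 was 11.4, 16.9, 32.0 and 30.5 CPM in neurons and 0, 0, 0 and 27.6 CPM in OPCs, the last from 1 UMI. The 3 counts of 0 allow up to 67.0, 118 and 58.5 CPM, above every neuron value, so a difference of Egr4 was not detectable at this depth. Nr4a1 was 166 ± 37.2 CPM in OPCs, 360 ± 97.2 in vascular cells and 13.8 ± 9.78 in neurons. Ier2 had the largest ratios, with 572 ± 203 CPM in OPCs (135-fold) and 1009 ± 460 CPM in vascular cells (239-fold) against 4.23 ± 1.53 CPM in neurons, a level that rests on 44 UMIs. Dusp1 was 302 ± 134 CPM in OPCs, 846 ± 68.9 in vascular cells and 18.5 ± 9.25 in neurons. Arc was at 0 UMIs of 157799 in OPCs, which allows up to 19.0 CPM, and at 0 in vascular cells, which allows up to 35.3 CPM; both limits lie above the pooled neuron level of 9.85 CPM, so a lower level of Arc was not detectable at this depth.

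The members were tested with edgeR's quasi-likelihood test on the class sums with library as a block and Benjamini-Hochberg adjustment over all genes. With no low-count filter, so that all 10 members entered, 8 of 10 were higher in OPCs than in neurons, beside 5.48% of 19481 genes called higher. The same 8 genes, all but Egr4 and Arc, were higher in vascular cells, beside 6.17% of genes. With the low-count filter 8 members entered and each was again higher in both classes, beside 22.5% of 4698 genes in OPCs and 18.1% in vascular cells. Fosb, Nr4a1, Ier2 and Dusp1 had passed that filter only through their OPC and vascular sums, so its count says little on its own. In the filtered fit the log2 differences of OPCs from neurons ran from 2.65 (SE 0.23, adjusted p = 8.401e-30) for Junb to 6.75 (SE 0.34, adjusted p = 1.751e-83) for Ier2, and the largest adjusted p, that of Nr4a1, was 1.771e-11 (log2 difference 3.34). In vascular cells they ran from 3.95 for Egr1 to 7.78 for Ier2, with adjusted p of at most 7.35e-17. The direction held in 4 of 4 libraries for OPCs and 3 of 3 for vascular cells, for each of the 8. The share of all genes with such agreement is not given here, so this describes the values only. Library 4 had 8 vascular cells and did not enter, and stood at 25251 CPM for the 10 genes.

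**Figure D2:**
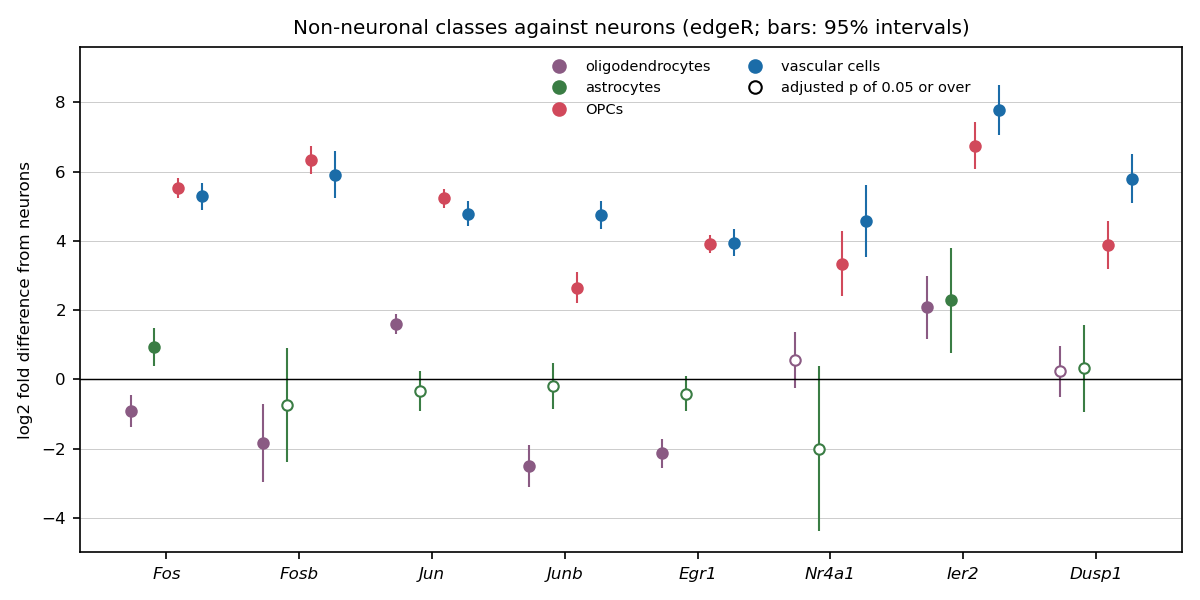
Log2 fold difference of 4 non-neuronal classes from neurons for the 8 members that passed the low-count filter, with 95% intervals from edgeR. Filled points had an adjusted p under 0.05 and hollow points did not. OPC and vascular points lie between 2.65 and 7.78 for every gene, and oligodendrocyte and astrocyte points lie on both sides of 0.

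Oligodendrocytes, the mature myelinating descendants of OPCs, showed a mixed pattern. Jun was 283, 416, 221 and 379 CPM in their libraries, above every neuron library, with a log2 difference of 1.59 (SE 0.14, adjusted p = 6.319e-28). Ier2 was also higher (log2 difference 2.08, adjusted p = 1.388e-05), at 5.66, 36.2, 2.49 and 24.1 CPM on 1 to 12 UMIs a library. With the low-count filter 2 of 8 members were thus higher than in neurons (32.3% of genes were) and 4 were lower (42.9% of genes were). The 4 were Junb (-2.51), Egr1 (-2.14), Fosb (-1.84) and Fos (-0.92). Fos in library 2 went against the call, at 81.4 CPM against 68.6 in neurons. Without the filter 2 of 10 members were higher (14% of genes) and 5 lower (25.8% of genes), Egr4 having joined the lower ones (log2 difference -3.64, adjusted p = 1.327e-07), while Arc, at 13.7 ± 6.38 CPM against 10.9 ± 4.01 in neurons, did not pass (0.55, adjusted p = 0.3481). So of the 10 genes Jun stood out in oligodendrocytes, where it supplied 487 of their 690 immediate early UMIs.

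In astrocytes few members differed from neurons by the test. Fos was 72.3, 131, 87.5 and 240 CPM, higher than in neurons in 3 of 4 libraries (log2 difference 0.93, adjusted p = 0.001571), and Ier2 was higher on 7 UMIs in all (2.28, adjusted p = 0.005814). These were 2 of 8 tested, beside 29.3% of genes called higher, and 0 were lower, beside 39.4%. At an unadjusted p under 0.05 in edgeR 0 members were lower as well, and DESeq2 called 1 higher and 0 lower. Without the low-count filter Fos did not pass (0.56, adjusted p = 0.1321), 1 member, Ier2, was higher (10.9% of genes) and 3 were lower (20% of genes). The 3 were Egr1 (-0.77, adjusted p = 0.01496), Jun (-0.70, adjusted p = 0.04475) and Egr4 (adjusted p = 0.005934), the last at 3.33 CPM from 1 UMI against 22.7 CPM in neurons. Fos turned to -0.64 when cells needed 800 detected genes and to -0.41 when cells were thinned to 1000 UMIs, and no member passed without library 4, so the astrocyte calls did not hold across settings.

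Set against the other non-neuronal classes without the low-count filter, 8 of 10 members were higher in OPCs (5.03% of genes) and 8 of 10 in vascular cells (4.3%). In oligodendrocytes 7 were lower (3.78%) and Arc was called higher (14.1%), and in astrocytes 8 were lower (2%). The Arc call rests on 20 UMIs in oligodendrocytes, 1 in astrocytes and 0 in OPCs and vascular cells. The limits of those counts of 0, 19.0 and 35.3 CPM, lie above the 13.7 CPM of oligodendrocytes. A difference of Arc from OPCs or vascular cells was thus not detectable at this depth. With the filter the counts were 8 of 8 higher (17.7% of genes in OPCs, 13.2% in vascular cells) and 7 and 8 of 8 lower (16.5% in oligodendrocytes, 11.5% in astrocytes), but 4 of these members had entered only through their OPC and vascular sums. Without the filter the gap was widest for Fosb in OPCs, with a log2 difference of 5.13, and for Junb in vascular cells, with 4.36. Junb and Dusp1 passed as higher in OPCs on the log scale of the model, yet their OPC level was above the mean CPM of the other classes in only 2 of 4 libraries, because the vascular level was larger still. Library 4 had too few vascular cells, so there the mean was over oligodendrocytes and astrocytes alone. For Nr4a1 in oligodendrocytes the difference did not pass (-0.995, adjusted p = 0.5531). The order of mean levels differed by gene: among the 5 classes tested, Fos, Fosb and Jun stood highest in OPCs, and Junb, Nr4a1, Ier2 and Dusp1 highest in vascular cells. Of these, Junb (OPC highest 782, vascular lowest 1653), Nr4a1 (196 against 250) and Dusp1 (442 against 769) did not overlap between the 2 classes, and the others did. How many of all genes do not overlap is not given here, so this describes the values only.

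Within the vascular gate the pooled levels of some members differed between the cell types. They are described here from UMIs summed over libraries, with exact Poisson 95% intervals that cover counting error only. Endothelial cells had more Ier2 (1324 CPM, 1043 to 1657, against 653, 387 to 1033, in mural cells), and for Jun the intervals just met (4372, 3848 to 4947, against 3158, 2530 to 3896). Mural cells, the pericytes and smooth muscle of vessels, had more Fos (4574, 3810 to 5446, against 2055, 1701 to 2461) and more Egr1 (4139, 3414 to 4972, against 1289, 1012 to 1618). Nr4a1 was 835 CPM (529 to 1253, 23 UMIs) in mural and 105 CPM (38.4 to 227, 6 UMIs) in endothelial cells. No test across libraries was made, since mural cells reached 10 in a single library. Library 1 held 23 of the 45 endothelial and 10 of the 26 mural cells, and of libraries 1 to 3 it had the lowest vascular Fos and Egr1. In these pooled levels cell type and library cannot be told apart.

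The smallest classes were high as well. In 10 microglia or macrophages the 10 genes summed to 21530 CPM (18854 to 24480, 233 UMIs), led by Egr1 at 6838 CPM and Jun at 6284 CPM, and in 7 fibroblasts to 25126 CPM (21589 to 29076, 180 UMIs), with Fos at 6840 CPM. Fibroblast Fos (49 UMIs) and microglial Jun (68 UMIs) lie above the OPC means, whereas fibroblast Jun (12 UMIs) and microglial Fos (29 UMIs) lie below them. With so few UMIs no order between these classes and OPCs is read from them. Within the OPC gate, 100 cells with more UMIs of Pdgfra and Cspg4, markers of precursors in general, than of Gpr17 and Neu4 reached 17932 ± 3771 CPM. The 21 cells in which Gpr17 and Neu4, markers of precursors committed to differentiate, were ahead reached 7555 CPM (6598 to 8612, pooled). Fos was 1855 CPM and Jun 3305 CPM in the latter, still above every neuron library. The 194 cells that no gate claimed stood at 7293 ± 3471 CPM, 12949 CPM in the 50 of them led by OPC markers and 1638 CPM in the 90 led by neuron markers.

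The levels were spread over most OPCs and vascular cells rather than held by a few. With every cell thinned to 1000 UMIs and shallower cells left out, 91.1% ± 5.89 of 73 OPCs had a UMI of at least 1 of the 10 genes (96.1% unthinned, 54 cells left out), against 31.8% ± 5.47 of 2150 neurons (57.6% unthinned, 307 left out) and 28.3% ± 5.66 of 697 oligodendrocytes (37.2% unthinned, 220 left out). In 27 vascular cells the pooled share was 99.7% (98.6% unthinned, 44 left out), and in 115 astrocytes the share was 29.1% ± 19.1 (18.8% unthinned, 283 left out). No class here is known to lack these genes, so the shares are read against each other only. By gene, Jun was seen in 86.5% ± 8.16 of OPCs and 11.5% ± 1.26 of neurons, Fos in 70.5% ± 5.10 and 5.58% ± 1.98, and Egr1 in 77.8% ± 2.44 and 13.4% ± 5.10. In these thinned cells 3 or more different members were present in 56 of 73 OPCs (76.7%) and 24 of 27 vascular cells (88.9%), but in 62 of 2150 neurons (2.88%), 6 of 697 oligodendrocytes and 2 of 115 astrocytes. OPCs had a median of 11 immediate early UMIs in 1000 (interquartile range 6 to 21).

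**Figure D3:**
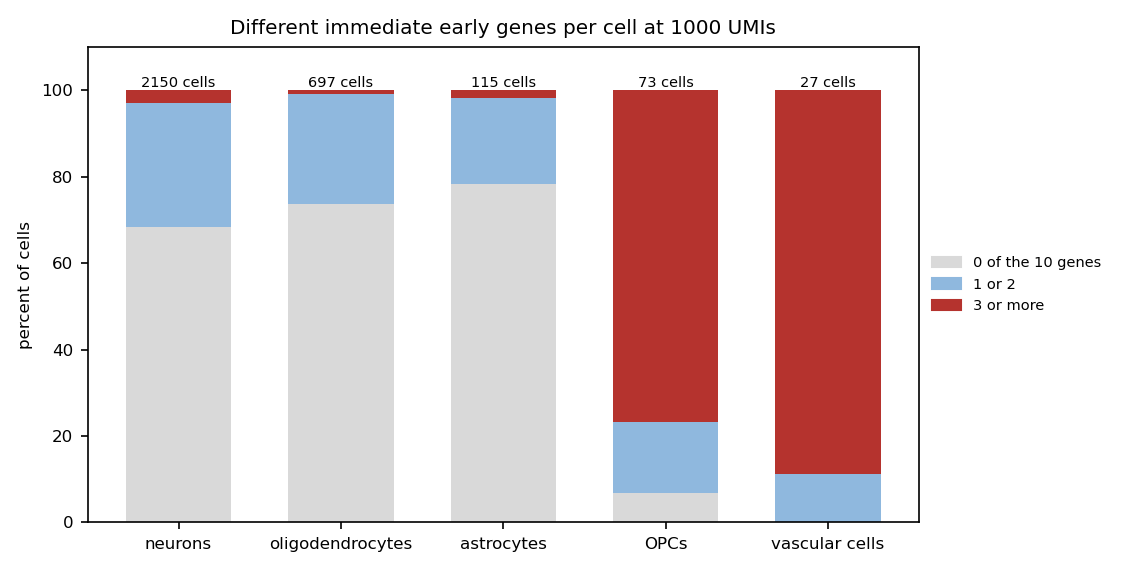
Share of cells with 0, with 1 or 2, and with 3 or more of the 10 genes after thinning each cell to 1000 UMIs, by class, with the number of cells above each bar. Cells with 3 or more genes made up 76.7% of OPCs and 88.9% of vascular cells and 2.88% of neurons.

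Within both OPCs and neurons several members occurred together with Fos. Of the 50 thinned OPCs with a Fos UMI, 50 had Jun, 46 had Egr1 and 34 had Fosb, whereas among the 23 without Fos the shares were 60.9%, 43.5% and 30.4%. Among thinned neurons Egr1 was seen in 37.0% of the 127 with Fos and 10.97% of the others, Junb in 28.3% and 6.38%, and Fosb in 11.8% and 0.643%. Not every pair in OPCs went this way: Dusp1 was seen in 1 of 11 cells with Nr4a1 and in 24.2% of those without, and Egr4 and Arc were not seen. At full depth 1041 of 2457 neurons (42.4%) had 0 UMIs of the 10 genes, and the top 5% of neurons (123 cells) held 39.3% of the neuronal immediate early UMIs. In 85 neurons the count was 10 or more, with a highest count of 66 in a single cell.

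Depth differed between classes, and the levels are given by depth for that reason. Neurons under 2000 UMIs stood at 722 ± 211 CPM for the 10 genes, those of 2000 to 5000 UMIs at 586 ± 250 and those over 5000 UMIs at 506 ± 165. OPCs under 2000 UMIs (111 of the 127) stood at 16182 ± 2595 CPM. Vascular cells under 2000 UMIs (64 of the 71) stood at 16838 ± 4160 CPM (17593 pooled), and pooled levels were 9915 CPM in the 5 cells of 2000 to 5000 UMIs and 6421 CPM in the 2 above. The 5652 barcodes under 400 genes, which no comparison used, stood at 3005 ± 904 CPM, above neurons and below OPCs, with Jun at 1074 ± 241 CPM and Arc at 8.03 ± 3.90 CPM. The part of such shallow barcodes in the class levels was not tested.

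The libraries differed among themselves, and not in the same order in each class. In neurons library 1 was the lowest for 7 of the 10 genes and library 3 the highest for 7, and the summed level ran over 330.5, 463, 758 and 662 CPM. Jun moved least between neuron libraries, 1.33-fold from lowest to highest, Fos 3.58-fold and Nr4a1 4.33-fold. In oligodendrocytes library 2 was the highest and library 3 the lowest for 7 genes each, and in OPCs library 4 was the highest for 6. Median UMIs per kept cell fell in the order of libraries 1, 2, 3 and 4, from 2504 to 1483.5, and the part of depth in these differences was not tested.

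Among neurons, glutamatergic cells were compared with GABAergic cells, the main neurons of the BNST. Fos was 8.98, 0 and 0 CPM in glutamatergic neurons of libraries 1, 2 and 4 (3 UMIs in all) against 34.5, 71.6 and 101 CPM in GABAergic neurons. Junb was 15.0, 13.1 and 22.9 CPM (1 to 5 UMIs a library) against 56.7, 78.4 and 107 CPM. For both genes the groups did not overlap, and the share of all genes without overlap is not given here. They were lower in glutamatergic neurons by edgeR's quasi-likelihood test (Junb log2 difference -2.14, SE 0.48, adjusted p = 7.876e-04; Fos adjusted p = 4.333e-04), as was Egr1 (-0.99, adjusted p = 0.0428), which was lower in 2 of 3 libraries. That is 3 of 7 members tested, beside 1.49% of 9489 genes called lower, and 0 were higher by edgeR, at an unadjusted p under 0.05 or by DESeq2, beside 0.896%. Fosb, Nr4a1 and Ier2 were at 0 UMIs in all glutamatergic neurons and did not enter this fit, and Jun (-0.31), Egr4, Arc and Dusp1 did not pass. Without the low-count filter 3 of 10 members were lower, beside 0.802% of 18087 genes. Fosb (adjusted p = 0.3135), Nr4a1 (0.4443) and Ier2 (0.8325) did not pass in that edgeR fit. The comparison rests on 77 glutamatergic cells, DESeq2 called 0 members, thinning to 1000 UMIs left 0, and leaving out library 1 left 1. Over all 4 libraries median depth was 5253 UMIs in glutamatergic and 3493 in GABAergic neurons, and the part of cell depth was not tested.

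Subtype gates within GABAergic neurons were set by a neuropeptide or transcription factor, with positive cells (at least 2 UMIs of the marker) set against cells with 0. Of 131 pairs of member and gate tested over 17 gates, 23 were higher in the positive cells and 4 lower, beside 2.212% and 2.082% over all genes and gates. The higher calls fell on Egr1 and Junb (5 gates each), Fos (4), Fosb and Egr4 (3 each), Nr4a1 (2) and Arc (1). Jun was called lower in 2 gates and Dusp1 in none of 17, either way. Gates overlap and positive cells were mostly deeper than negative ones, so the calls are not independent of each other or of depth. With cells thinned to 1000 UMIs 4 pairs remained past the threshold as higher and 0 as lower, without the library block 2 and 2, and with DESeq2 9 and 1.

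**Figure D4:**
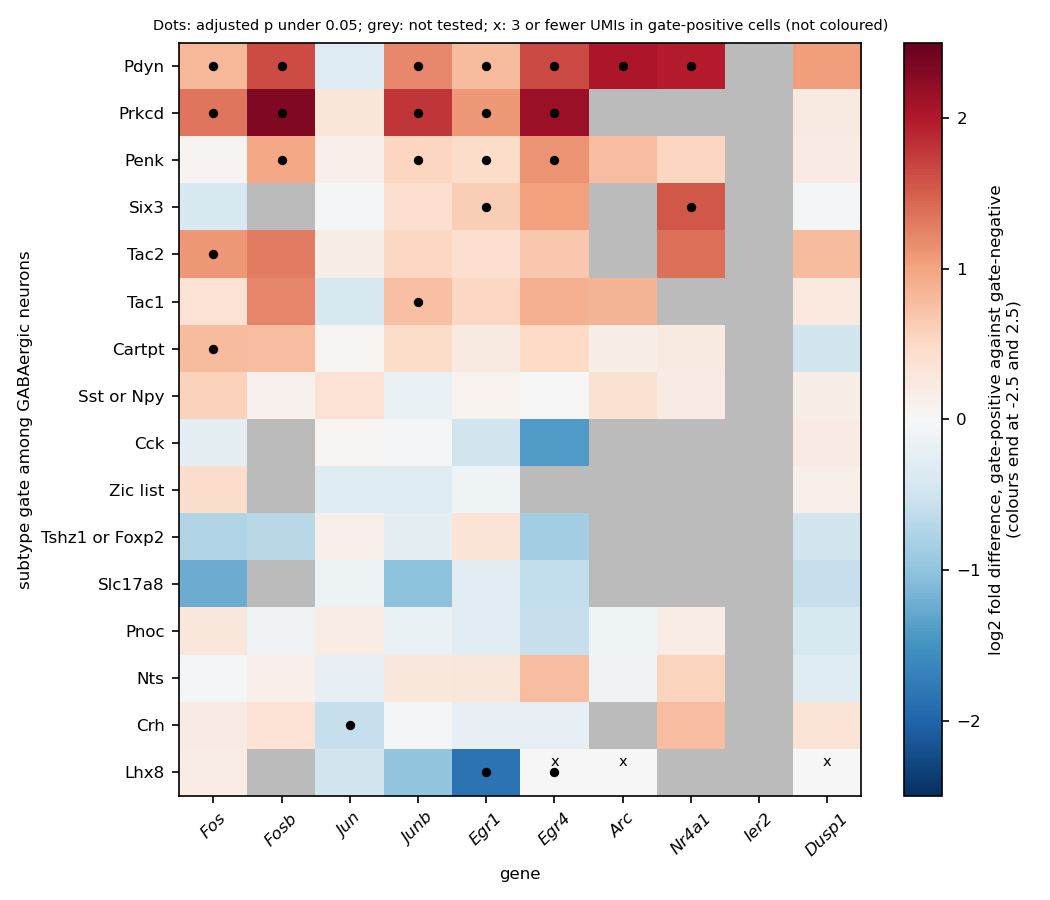
Log2 fold difference between gate-positive and gate-negative GABAergic neurons for each gene (columns) and 16 subtype gates (rows), on a colour scale that ends at -2.5 and 2.5. Dots mark an adjusted p under 0.05, grey marks pairs not tested, and x marks pairs with 3 or fewer UMIs in the positive cells, left uncoloured. Dots gather in the Pdyn, Prkcd and Penk rows, and the Pnoc row has 0.

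Pdyn-positive neurons, which make the opioid peptide dynorphin, had the most calls: 7 of 9 members tested were higher, beside 2.14% of genes. The gate held 94 cells (15 to 37 per library). Junb was 104, 163, 234 and 264 CPM in positive cells of libraries 1 to 4 and 52.2, 72.7, 102 and 93.6 CPM in negative cells, higher in 4 of 4 libraries (log2 difference 1.20, SE 0.21, adjusted p = 4.511e-05). Egr4 was 34.8, 71.4, 73.2 and 65.9 CPM against 9.56, 13.4, 32.5 and 27.0 CPM (1.66, adjusted p = 0.005945), on 5 to 9 UMIs a library. Arc, tested in 8 gates and called in this one, was 15.5, 20.4, 58.6 and 76.9 CPM against 5.73, 9.88, 9.51 and 11.5 CPM (2.03, adjusted p = 0.01506), on 2 to 7 UMIs a library. In this gate Arc passed the low-count filter only through its positive sums, so its call says little on its own. Fos (0.83), Fosb (1.64), Egr1 (0.80) and Nr4a1 (1.96, in 3 of 4 libraries) were the others. Egr4, Fosb and Nr4a1 also needed positive sums to pass the low-count filter in this gate, so their calls carry the same limit. Median depth was 4995 UMIs in positive and 3398 in negative cells. Thinned to 1000 UMIs, the Junb difference was 0.90 (SE 0.45, adjusted p = 0.4922), and without the library block it was 1.14 (adjusted p = 0.05362). DESeq2 called 4 members in this gate.

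Prkcd-positive neurons, marked by protein kinase C delta, numbered 50, and libraries 1, 2 and 4 had enough cells. Of 7 members tested 5 were higher, beside 3.4% of genes. Junb was 204, 285 and 266 CPM in positive cells and 53.0, 66.5 and 103 CPM in negative cells (log2 difference 1.79, SE 0.28, adjusted p = 9.967e-08). Egr4 (2.14, adjusted p = 0.004478), Fosb (2.32, adjusted p = 0.01217) and Egr1 (1.09, adjusted p = 8.992e-04) were higher in 3 of 3 libraries. Fosb needed positive sums to pass the low-count filter in this gate, so its call says little on its own. Fos (1.34, adjusted p = 0.002384) was higher in 2 of 3: library 1 had 27.2 CPM on 2 UMIs against 34.6. Without library 2 the Junb difference was 1.545 (adjusted p = 0.06329) and thinned to 1000 UMIs 1.619 (adjusted p = 0.1695). DESeq2 called 3 members here. Median depth was 4565.5 UMIs in positive and 3449 in negative cells. Of the 50 cells, 25 were also Cartpt-positive.

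In 530 Penk-positive neurons, which make enkephalin, Egr4 (log2 difference 1.13), Fosb (0.97), Junb (0.53) and Egr1 (0.45) were higher, 4 of 9 tested beside 4.14% of genes. Single or paired calls were Egr1 (0.62) and Nr4a1 (1.54) in Six3-positive neurons (0.877% of genes), Fos (1.09) in Tac2-positive (1.12%), Junb (0.76) in Tac1-positive (1.4%), Fos (0.79) in Cartpt-positive (2.17%) and lower Jun (-0.58) in Crh-positive neurons (3.54%). In the Six3 gate Nr4a1 needed positive sums to pass the low-count filter, so its call says little on its own. DESeq2 called 0 members in the Penk, Six3, Tac2, Tac1 and Crh gates and 1 in the Cartpt gate.

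Lhx8-positive neurons were the gate in which Egr genes were lower. Egr1 was 8.98, 62.9 and 70.5 CPM in positive cells of libraries 1, 2 and 4 against 96.95, 130 and 217 CPM in negative cells (log2 difference -1.84, SE 0.33, adjusted p = 1.226e-06). Library 3, with 8 positive cells, did not enter and stood at 237 against 273 CPM. Egr4 was at 0 of 468978 UMIs in the 68 positive cells, which allows up to 6.40 CPM, against 22.4 CPM in negative cells, at least 3.50-fold lower over the group. These 2 were the lower calls, beside 5.08% of genes. Fos did not follow them, at 26.9, 6.98 and 352 CPM against 35.3, 77.4 and 95.2 CPM. Thinned to 1000 UMIs, the Egr1 difference was -1.73 (SE 0.77, adjusted p = 0.3528), and DESeq2 called 1 of the 2 genes. Median depth was 5931.5 UMIs in positive and 3395 in negative cells. Over all neurons Egr1 was 230 ± 102 CPM in cells under 2000 UMIs and 150 ± 71.8 in those over 5000. Egr4 was 32.5 ± 24.5 and 18.5 ± 9.05 CPM. The part of cell depth in the lower calls was not tested.

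Pnoc-positive neurons, which make the prepronociceptin named in the study's title, had 0 calls by edgeR among 9 members tested in 275 cells, as at an unadjusted p under 0.05 and by DESeq2, beside 1.2% of genes called higher and 1.14% lower. Their log2 differences from Pnoc-negative GABAergic neurons ran from -0.58 to 0.29. The Nts (1.0% of genes higher, 1.17% lower), Sst or Npy (1.09%, 0.406%), Cck (2.46%, 1.79%), Zic (1.32%, 1.73%), Tshz1 or Foxp2 (0.695%, 0.436%) and Slc17a8 (1.38%, 2.15%) gates had 0 calls over 42 pairs by edgeR, 10 pairs at an unadjusted p under 0.05 and 0 by DESeq2. These are results of single-marker gates at this depth and do not show that the levels were equal.

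Other genes of the immediate early response followed the members in part. Of 34 further immediate early genes, 12 were higher and 4 lower in OPCs than in neurons without the low-count filter, beside 5.48% and 15.4% of all genes. In vascular cells 20 were higher and 2 lower, beside 6.17% and 14.7%. In OPCs the largest differences past the test were those of Socs3, a feedback inhibitor of cytokine signalling (282 ± 129 CPM against 0.85 ± 0.78 in neurons), Trib1, a pseudokinase (185 ± 105 against 2.90 ± 1.96), and Cyr61, a secreted matrix protein (260 ± 122 against 4.25 ± 2.28). Rgs2, a regulator of G protein signalling, was lower, at 22.3 ± 16.4 CPM against 351 ± 40.8.

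In vascular cells the leading genes were Klf2, the shear stress factor of endothelium (1661 ± 351 CPM against 0.81 ± 0.80 in neurons), Klf4 (1171 ± 32.4 against 1.18 ± 0.70) and the stress factor Atf3 (652 ± 541 against 0.18 ± 0.23, the latter from 2 UMIs). OPCs held 0 UMIs of Atf3. Oligodendrocytes had high Sgk1, a kinase induced by glucocorticoids (367 ± 233 CPM against 21.4 ± 4.42 in neurons), and Rhob, a small GTPase (446 ± 47.0 against 84.7 ± 6.68). Npas4, an activity-dependent factor of neurons picked out after its values were seen, had 274 UMIs in neurons (34.2 ± 24.3 CPM) and 0 in OPCs and oligodendrocytes.

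**Figure D5:**
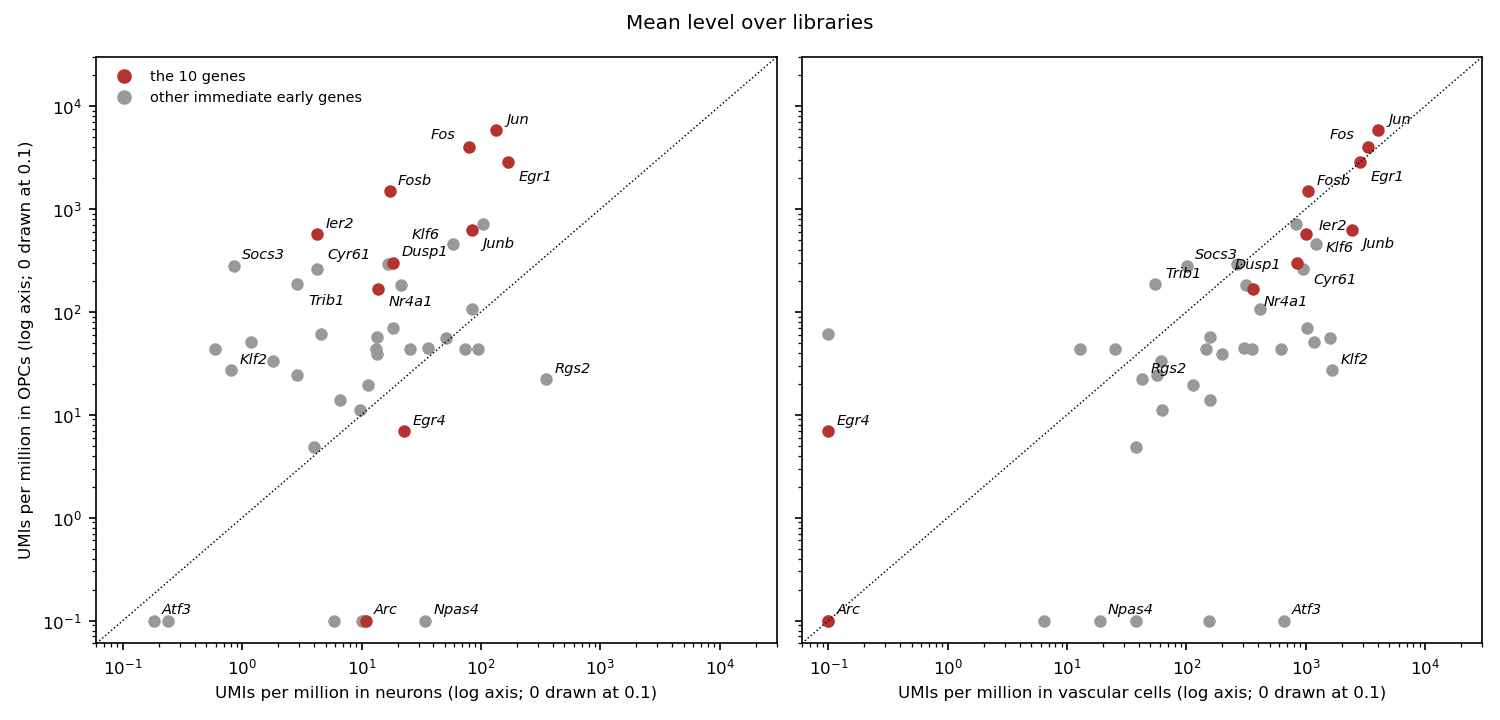
Mean level in OPCs against that in neurons (left) and in vascular cells (right), in CPM on log axes, for the 10 genes and 34 other immediate early genes; the dotted line marks equal levels and 0 is drawn at 0.1. Against neurons 8 of the 10 lie above the line, and Egr4, Arc, Npas4 and Rgs2 are among those below it.

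Of 12 heat shock and chaperone genes without the filter, 7 were lower in OPCs than in neurons (15.4% of all genes were), and 3 were higher and 8 lower in vascular cells (6.17% and 14.7%). The inducible Hspa1a was higher in vascular cells, at 347 ± 83.3 CPM against 17.1 ± 2.55 in neurons. In OPCs it was 59.2 ± 79.1 CPM, and Hspa5 was 1435 ± 181 CPM against 768 ± 75.7. Both OPC differences passed with the filter and not without it (adjusted p = 0.09511 for Hspa1a and 0.604 for Hspa5). For the list genes named, OPC differences were lower in the unfiltered fit, as for Hspa5 (log2 difference 0.176 against 0.664 with the filter). The counts of lower genes in OPCs thus depend on the filter. Hsp90aa1 was lower in OPCs, at 423 ± 132 CPM against 968 ± 74.2. Of 21 upstream regulators without the filter, 1 was higher and 7 lower in OPCs, and 3 were higher and 4 lower in vascular cells, shares to be read against the same background. The gene higher in OPCs was serum response factor (Srf), at 139 ± 50.9 CPM against 19.0 ± 4.40 in neurons (log2 difference 2.182, adjusted p = 3.077e-06). The kinase Map2k1 was lower, at 12.5 ± 14.6 against 348 ± 28.7. In vascular cells Mef2c was higher, at 516 ± 296 CPM against 118 ± 23.9. The late response genes of neurons Vgf and Scg2 were lower in both classes, Scg2 at 21.5 ± 27.9 CPM in OPCs against 1348 ± 84.7 in neurons.

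The genes most like the members across classes were sought by Pearson r with the mean of the 8 members that passed the filter, over 19 sums of class and library, which share libraries and classes and carry no p. Outside the lists these were Cp (r = 0.97), Cav1 (0.96), Akap13 (0.94), Ppfibp1 (0.94) and Cav2 (0.93). Each was high in OPCs and vascular cells, as Cp at 170 CPM and 527 CPM against 0.23 CPM in neurons. The members' own r ran from 0.94 to 0.98, but each member is part of that mean, so a high r was given in advance.

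By GENCODE gene models of GRCm38, Jun overlaps the antisense gene Junos, Junb overlaps Prdx2 on the other strand, and a long Dusp1 model overlaps Ergic1 on the other strand; whether counting used strand is not given in the sources used here. Prdx2 stood at 377 CPM in neurons, 266 in OPCs and 94.2 in vascular cells, and Ergic1 at 58.8, 38.0 and 0 CPM, and their part in the Junb and Dusp1 levels was not tested.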

How the data were processed

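UMI counts per gene and barcode were deposited by the authors as 1 table per library, per the labels' protocols from Drop-seq; the submitters' processing notes name bcl2fastq 2.18.0.12, STAR 2.4.2a, Picard 2.2.4 and the builds mm10 and GRCm38, without roles. Every per-sample column was used. Members and lists were chosen with earlier results of these data known. Barcodes with at least 400 genes and at most 10% mitochondrial UMIs were kept. Scrublet (scanpy 1.11.5, expected rate 0.05) removed 58 doublets (1.37%). A class needed 3 UMIs from 2 genes of its list and over 2 times all other lists together; a subtype needed 2 UMIs. Library totals ran from 2640399 to 5652342 UMIs. Exact 95% intervals, and limits set at 3 counts, cover counting error only.

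Class sums of at least 10 cells, in at least 3 libraries, were tested with edgeR 4.0.16 (TMM, filterByExpr, quasi-likelihood), DESeq2 1.42.0 being an alternative. Library was a block because the classes of a library come from the same mice. Calls used an adjusted p under 0.05. Scripts were tested on simulated data with known changes. For OPCs against neurons edgeR recovered 29.9% of 2-fold and 80% of 4-fold changes, with 3.61% of calls wrong. These were 7.04%, 54.8% and 10% for vascular cells against neurons, and 64.6%, 95.9% and 1.89% for the Penk gate. With DESeq2 12.3%, 6.38% and 0.746% of calls were wrong in the 3 cases. Named genes were the 10 members, up to 3 rises and 3 falls per list, and the 5 most similar genes. Microglia had too few cells for a test. 1 of the 17 subtype gates counts in the totals over gates but is not reported here.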

Additional observations from a re-analysis of the deposited data

Results flagged for a closer look

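In 8 of 43 sets of 4 library values (a gene, or the sum of the 10 genes, in a class), 1 library lay far from the other 3 by Dixon's criterion. For continuous values chance marks about 1 in 20 such sets, or 2.15 here. A set with UMIs in a single library meets the criterion by construction, as 5 of the 8 did, so the 8 cannot be set against 2.15. Fos in oligodendrocytes of library 2 was 81.4 CPM (27 UMIs), against 12.4 to 18.9 CPM in the others. Junb in OPCs of library 3 was 253 CPM (13 UMIs), against 745 to 782 CPM. Dusp1 in astrocytes of library 3 was 38.9 CPM (4 UMIs), against 9.03 to 13.3 CPM. The other 5 rest on 1 to 3 UMIs in a library while the rest had 0: Egr4 in OPCs of library 4 (27.6 CPM), Fosb in astrocytes of library 2 (39.4 CPM), Egr4 and Arc in astrocytes of library 4 (13.3 CPM each) and Nr4a1 in astrocytes of library 3 (9.72 CPM).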

How the results depend on the processing

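The OPC and vascular calls kept their direction and side of the threshold in every alternative run, and the other class counts not named here moved by less than 1.5 times. Against neurons, astrocyte calls (2) became 4 without the low-count filter, 1 with DESeq2, 800 genes or 5% mitochondrial UMIs, and 0 when thinned, with 0 to 2 on leaving out a library (0 without library 4). Fos there turned to -0.64 with 800 genes and -0.41 when thinned. Against other non-neuronal classes, astrocyte calls (8) became 3 with 800 genes and 3 when thinned, where Junb turned to 0.23. Glutamatergic calls (3) became 0 with DESeq2 and 0 when thinned, and 1 to 3 on leaving out a library. Subtype pairs higher (23) became 2 with no replicate block, 9 with DESeq2, 12 with 5% mitochondrial UMIs, 4 when thinned and 11 with a gate of 3 UMIs, and 11 to 20 on leaving out a library (11 without library 2, 15 without library 4). Subtype pairs lower (4) became 8 without the filter, 2 with no replicate block, 1 with DESeq2, 2 with 5% mitochondrial UMIs, 0 when thinned, 7 with a gate of 1 UMI and 1 with a gate of 3, and 3 to 5 on leaving out a library. With no replicate block the class counts were unchanged and the glutamatergic count was 2. The vascular level was 9566 CPM with 800 genes. At 500 UMIs the share of cells with a member was 20.0% in neurons, 16.2% in oligodendrocytes and 98.0% in vascular cells (99.6% at 1000). Scaling by total UMIs moved the median of all genes from -0.22 to -0.65 for oligodendrocytes and from -0.23 to 0.04 for OPCs against neurons. OPC gates by Pdgfra and Cspg4 and a minimum of 8 cells were chosen after seeing the data and changed no OPC or vascular call. At this depth a lower Arc or Egr4 level in OPCs was not detectable.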
